A study of Mus musculus with 2 samples.

Results

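The expression of *Th*, *Slc18a2* and *Hdc*, 3 genes of monoamine synthesis and storage among the 500 genes of a MERFISH probe panel, was followed across the embryonic mouse head. The genes were taken by name from the cell-by-gene counts of both sections, and they were chosen with earlier results of these data known. MERFISH identifies single RNA molecules in tissue by imaging fluorescent barcodes in successive rounds, which gives each molecule a position and, after segmentation, a cell. A 10 µm coronal section of 1 control head and of 1 KO head, both at E16.5 (days of embryonic life), had been imaged after the whole heads were flash frozen. The control carried *Sst-Cre* and the *tdTomato* reporter, and the KO carried *Sst-Cre*, *tdTomato* and the *Dnmt1* loxP2 allele, so that Cre and the reporter were common to both. Cre is made from the *Sst* locus, which limits the deletion of *Dnmt1* to cells that express *Sst* and their descendants. The panel has no *Dnmt1* target, and the deletion itself could not be checked.

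Monoamines are small transmitters made from single amino acids. *Th* encodes tyrosine hydroxylase, the rate-limiting enzyme of dopamine and noradrenaline synthesis, and *Hdc* encodes histidine decarboxylase, which makes histamine in mast cells and in a group of hypothalamic neurons. *Slc18a2* encodes VMAT2, a transporter that loads dopamine, noradrenaline, serotonin and histamine into vesicles. A cell that both makes a monoamine and loads it through VMAT2 needs it together with a synthesis enzyme. In the GRCm39 mouse assembly, *Th* lies on the minus strand at chr7:142443476-142453751 with 13 exons. *Slc18a2* lies on the plus strand at chr19:59249238-59284695 with 16 exons. *Hdc* lies on the minus strand at chr2:126435558-126460899 with 12 exons.

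The sections differed in depth. The control section held 2842355 panel transcripts in 108533 segmented cells (median 20 per cell) and the KO section 13437174 in 110004 cells (median 101). Cells with at least 20 transcripts were analysed, which kept 55231 control cells (50.9%) and 101250 KO cells (92.0%), with medians of 34 and 109 transcripts. Levels are given as counts per 1000000 panel transcripts of the same cells (CPM), with exact Poisson 95% intervals that cover counting error only. The background is given by 50 blank barcodes that code for no gene, whose median was 82.1 CPM in the control section (range 19.4 to 262) and 87.5 CPM in the KO section (18.8 to 240). Each group is 1 section of 1 animal, so genotype, animal, plane of section and imaging run cannot be told apart, no comparison has a replicate check and no test was run.

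All 3 genes were sparse, and they were sparse in different ways. *Hdc* was the most abundant, with 690 CPM (656 to 724) in the control section and 665 CPM (651 to 679) in the KO section. *Th* measured 337 CPM (314 to 361) in the control and 239 CPM (231 to 248) in the KO section, where 1 of the 50 blank barcodes was higher. *Slc18a2* measured 120 CPM (106 to 135) in the control section, where 12 of the 50 blank barcodes were higher, and 363 CPM (353 to 373) in the KO section, where none was. *Th* and *Slc18a2* were therefore present as 1 or a few molecules per cell, while *Hdc* was concentrated in a few cells. The most *Th* transcripts in 1 cell were 4 (control) and 10 (KO), and the most *Slc18a2* transcripts were 2 and 10. For *Hdc* the maxima were 44 and 174, and cells with at least 10 transcripts (37 control and 133 KO cells) held 43.1% and 73.4% of all *Hdc*.

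The 3 genes were spread differently over the section. Places were drawn from the local mix of other panel genes. The pallial place covered part of the developing cortex. The germinal place was the progenitor zone of the ganglionic eminences, from progenitor genes that include *Dlx1*. The others were the striatal place, the remaining brain and the mesenchymal place around the brain. Of a radial glia-like cell cluster (C10) led by *Hopx*, *Aldoc* and *Eomes*, 72.0% of control and 51.3% of KO cells lay in the remaining brain. The remaining brain may therefore hold part of the cortical progenitor zone. The remaining brain held 59.7% of control and 33.8% of KO *Th* transcripts, against 27.0% and 22.5% of all panel transcripts. By level, *Th* was highest there in the control (747 CPM), but in the KO section the germinal place (441 CPM) lay above the remaining brain (360 CPM) and the striatal place (358 CPM). The germinal place held 30.6% of control and 56.8% of KO *Slc18a2*, against 8.14% and 11.0% of all panel transcripts. The mesenchymal place held 90.3% of control and 86.7% of KO *Hdc*, against 30.4% and 23.0% of all panel transcripts. The pallial place, with 21.9% and 26.6% of panel transcripts, was poor in all 3 genes: it held 8.31% and 12.2% of *Th*, 7.55% and 4.03% of *Slc18a2*, and 1.63% and 2.38% of *Hdc*.

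**Figure D1:**
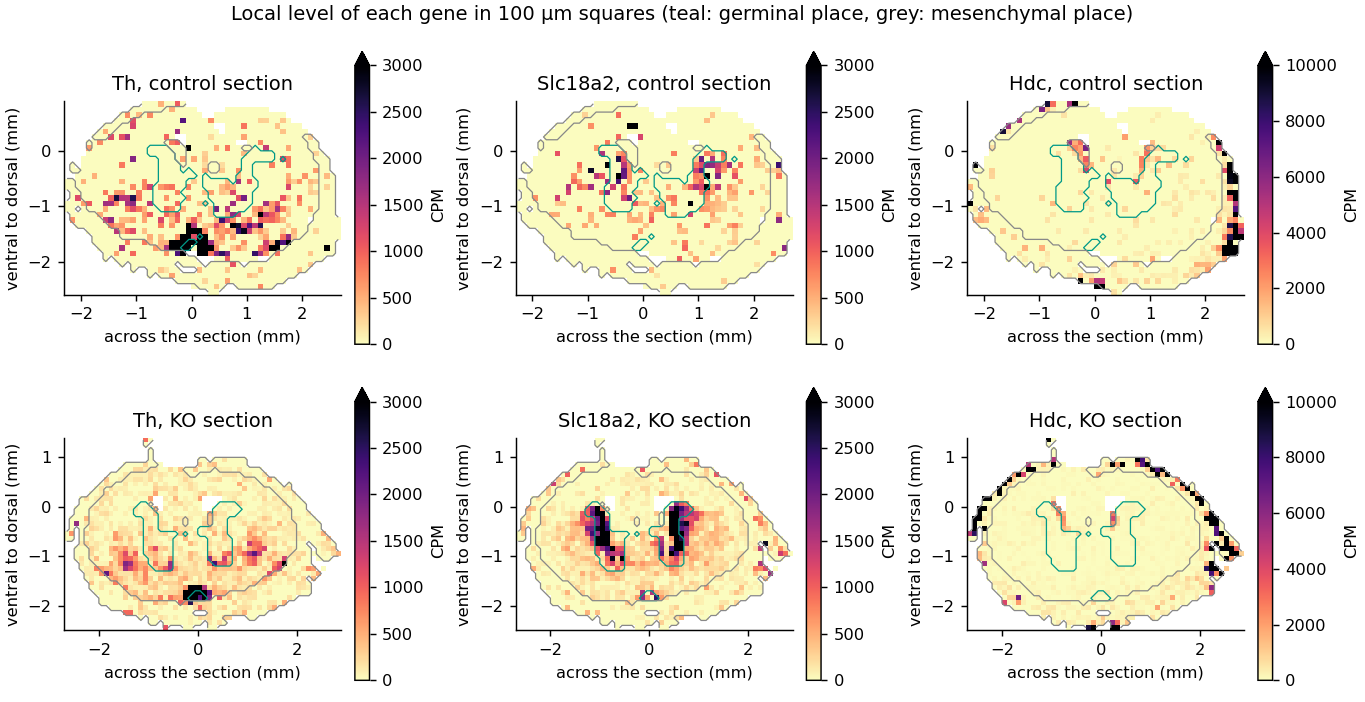
Local levels of *Th*, *Slc18a2* and *Hdc* (CPM, colour scale capped at the value shown) in 100 µm squares of the control section (top) and the KO section (bottom), with the germinal place outlined in teal and the mesenchymal place in grey. *Th* is densest at the ventral midline, *Slc18a2* in the germinal place and *Hdc* in the mesenchymal rim, in both sections.

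*Th* marked the ventral forebrain. In the lowest of 10 equal bands of brain height its level was 1919 CPM (1694 to 2167) in the control and 1350 CPM (1261 to 1444) in the KO section, and in the 4 uppermost bands it lay between 62.4 and 98.4 CPM, near the blank barcodes. Much of this was a single patch: the area within 500 µm of the midline in the lowest 30% of brain height held 36.9% of control and 31.9% of KO *Th* in the brain, against 8.88% and 9.18% of panel transcripts. In this midline area *Th* measured 1890 CPM (1672 to 2129) in the control and 990 CPM (928 to 1055) in the KO section. The midline area was set out after the maps had been seen, so its excess over the panel share follows in part from that choice. The maps also show a weaker patch on each side. A band between 20% and 45% of brain height at 700 µm or more from the midline was likewise set out after the maps had been seen. In this lateral band *Th* measured 454 CPM (385 to 531) in the control and 437 CPM (409 to 467) in the KO section, levels whose intervals overlap. Outside these areas and the germinal place *Th* measured 295 and 135 CPM. The profile over brain height differed between the sections. In the second lowest of the 10 bands *Th* measured 881 CPM (760 to 1016) in the control and 260 CPM (229 to 295) in the KO section. In the third it measured 524 CPM (432 to 631) and 496 CPM (457 to 538). After each cell had been thinned to 25 transcripts, 1.40% of control and 0.904% of KO cells of the remaining brain held *Th* (2.43% and 3.91% unthinned), against 0.314% and 0.227% of pallial cells (0.465% and 1.23% unthinned).

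The midline and lateral patches lay in different cells. Cells were clustered without the 3 genes. At the ventral midline, 73.1% of control and 80.1% of KO *Th* transcripts lay in cluster C5, a hypothalamic or ventral forebrain neuron-like cluster led by *Irs4*, *Onecut2*, *Calcr* and *Baiap3*. In the lateral band this place was taken by cluster C2, led by *Sst*, *Elfn1* and *Npy* and left unnamed, with 40.5% of control and 43.1% of KO *Th*, followed by the striatal projection neuron-like cluster C1 with 23.5% and 24.4%. Such shares also depend on how many cells of a cluster lie in the band. The *Th* level of C1 in the section as a whole was only 296 CPM (control) and 250 CPM (KO), below that of the band. Over the whole section C5 had the highest *Th* level of all 25 clusters, 1641 CPM (1442 to 1860) in the control and 832 CPM (776 to 890) in the KO section, and C2 the next, with 745 CPM (634 to 869) and 530 CPM (490 to 573). The intervals of C5 and C2 did not overlap in either section. Next came C19, unnamed and with *Chat* and *Slc17a8* among its leading genes, with 701 CPM (428 to 1083) and 444 CPM (358 to 545), and its intervals overlapped those of C2.

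Cells with *Th* held more *Baiap3*, *Irs4*, *Prokr2*, *Dlk1* and *Gad1* than cells without it in both sections. Of the more abundant panel genes (upper 50% by level), the 5 with the highest level in control cells with *Th* over those without were *Baiap3* (4.37-fold), *Irs4* (3.44-fold), *Prokr2* (2.95-fold), *Dlk1* (2.88-fold) and *Slc1a6* (2.83-fold). In the KO section they were *Baiap3* (3.11-fold), *Prokr2* (2.78-fold), *Irs4* (2.72-fold), *Pdyn* (2.50-fold), the gene of the dynorphin precursor, and *Dlk1* (2.0-fold). *Gad1*, which makes the transmitter GABA, was 2.40-fold higher in control and 1.75-fold higher in KO cells with *Th*. The leading genes differed between the patches. Within the lateral band the leading gene was *Prokr2*, the prokineticin receptor, in both sections (5.13-fold and 3.76-fold). It was followed by *Hhip* (4.79-fold) and *Hdc* (4.06-fold), each on 2 transcripts, in the control and by *Bmp7* (2.26-fold) in the KO section. *Prox1*, a gene of developing interneurons, came next, at 3.51-fold and 2.06-fold. Within the KO ventral midline the leading genes were *Rgs4* (3.57-fold), *Lypd1* (2.79-fold) and *Pdyn* (2.50-fold). Within the control midline they were *Cxcl14* and *Hhip*, on 2 transcripts and 1, then *Drd2* (3.11-fold), *Rgs4* (3.07-fold) and *Lypd1* (2.78-fold). Across the 25 clusters, the level of *Th* was most like that of *Pdyn* in the control (r = 0.83), with *Erbb4* (0.81), *Gad1* (0.75) and *Cadm1* (0.74) among the next, and in the KO most like *Baiap3* (r = 0.64), followed by *Peg10*, *Plcxd3*, *Chrm2* and *Grin3a* (0.62 to 0.58). These correlations are descriptions, since the clusters of a section share its depth and its segmentation.

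Within the germinal place, *Th* was largely a matter of position. The place as a whole measured 418 CPM of *Th* in the control and 441 CPM in the KO section. It includes a small piece at the ventral midline, 185 control and 866 KO cells, where *Th* reached 7494 CPM (5487 to 9996) and 4320 CPM (3851 to 4832). The rest of the germinal place, which holds the large paired eminences, measured 181 CPM (124 to 254) of *Th* in the control and 244 CPM (219 to 271) in the KO section, with median blank barcodes at 71.1 and 59.3 CPM. *Th* away from the midline piece was thus low, with intervals above the median blank barcode in both sections.

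*Slc18a2* followed the subpallial progenitor zone. By place, its control level went from 450 CPM (359 to 556) in the germinal place to 250 CPM (196 to 314) in the striatal place and 123 CPM (97.1 to 154) in the remaining brain. In the KO section the same order read 1875 CPM (1806 to 1947), 465 CPM (438 to 494) and 195 CPM (180 to 212). In both sections these 3 places did not overlap in their intervals. The pallial place measured 41.4 and 55.1 CPM, below the median blank barcode there (78.8 and 91.3 CPM), and served as the tissue without the gene. After the same thinning, 1.13% of control and 4.33% of KO germinal cells held *Slc18a2* (1.42% and 14.5% unthinned, at median depths of 28 and 85), against 0.152% and 0.131% of pallial cells (0.163% and 0.679% unthinned, at median depths of 32 and 100).

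**Figure D2:**
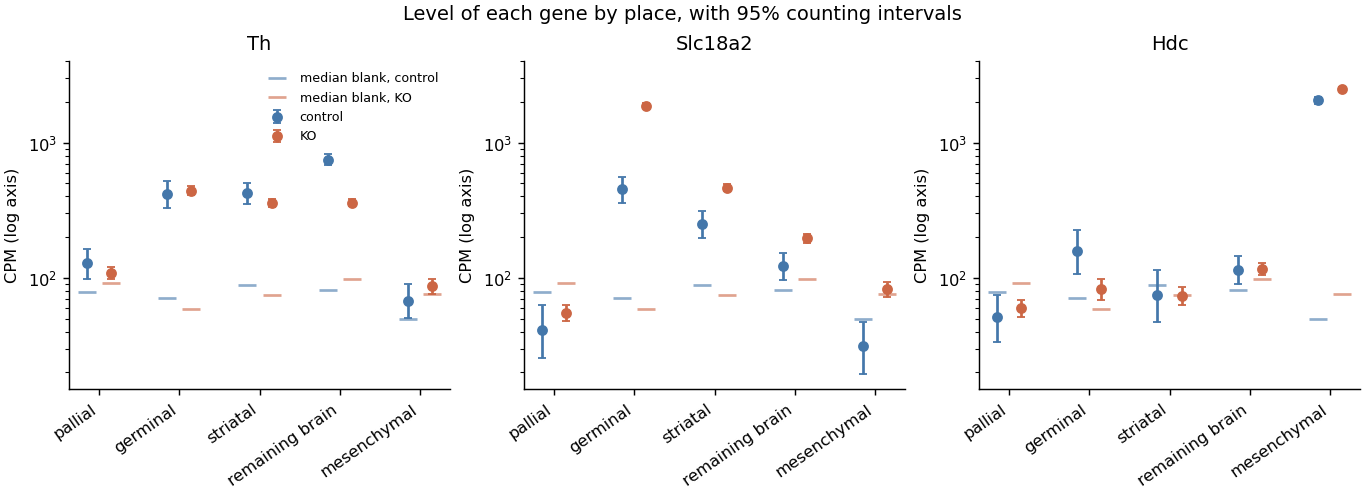
Levels of *Th*, *Slc18a2* and *Hdc* (CPM, log axis) in 5 places of the control (blue) and KO (orange) sections, with exact Poisson 95% intervals and short bars at the median blank barcode of the same place. *Slc18a2* goes down from the germinal to the striatal place and the remaining brain in both sections, and *Hdc* stands far above the blanks in the mesenchymal place.

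In the KO section the level of *Slc18a2* was lower nearer the edge of the germinal place. There *Slc18a2* measured 2476 CPM (2349 to 2610) more than 100 µm inside the border, 2129 CPM (1993 to 2271) between 100 and 50 µm, and 928 CPM (843 to 1018) in the last 50 µm. Outside the border, in the striatal place, it measured 1195 CPM (1029 to 1380) in the first 50 µm, 730 CPM (638 to 831) at 100 to 200 µm and 250 CPM (200 to 309) at 300 to 400 µm. The level just outside the border was thus above that just inside it, and levels then went down to 300 to 400 µm outside. Inside distances ran to any edge of the germinal place, while outside cells were striatal only. The bands on either side therefore need not face the same border. *Th* measured 736 CPM in the last inner KO band and 129 CPM in the first outer one. The ventral midline piece held 307 of the 649 *Th* transcripts of the KO germinal place, and its part in this step was not tested. In the control section the inner bands, 524 CPM (360 to 735) and 562 CPM (385 to 794), overlapped with each other and with the last inner band, 290 CPM (177 to 448). The first 50 µm outside, with 666 CPM (268 to 1372) on 7 transcripts, was the highest control band, and the level at 400 to 600 µm was 124 CPM (59.5 to 228). There are too few control transcripts to order neighbouring bands.

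**Figure D3:**
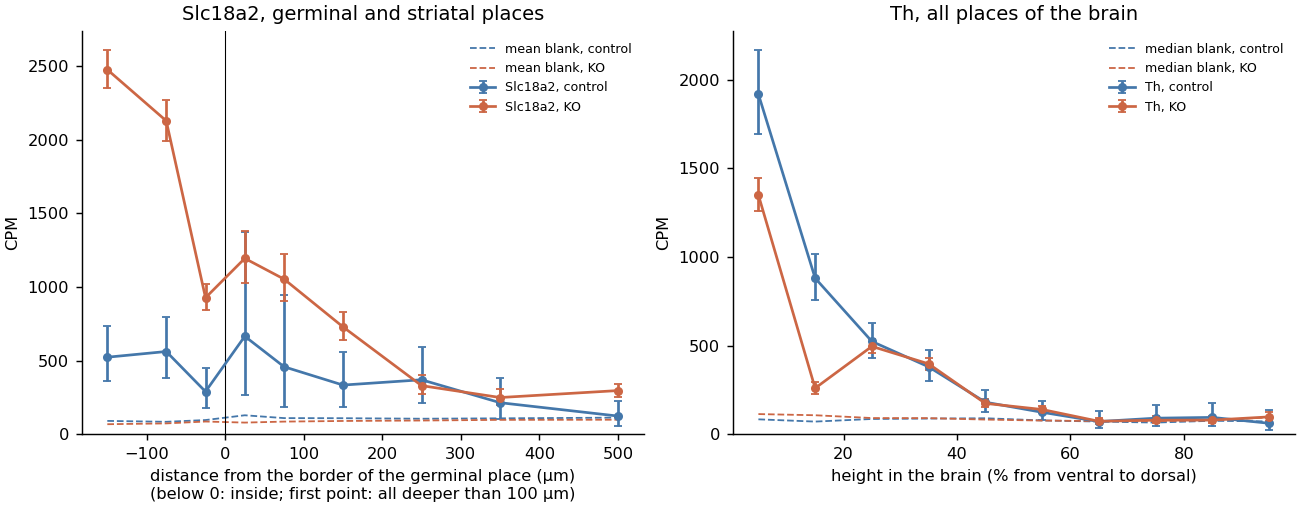
Left, *Slc18a2* (CPM) against distance from the border of the germinal place (µm, negative inside) for germinal and striatal cells, and right, *Th* (CPM) against height in the brain (%, ventral to dorsal), with exact Poisson 95% intervals and dashed lines for the blank barcodes. KO *Slc18a2* goes from 2476 CPM deep inside to 250 CPM at 300 to 400 µm outside, and *Th* is highest in the lowest band of both sections. Inside distances run to any edge of the germinal place, while outside cells are striatal only.

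By cell cluster, *Slc18a2* was highest in progenitor-like cells. The cluster with the highest level in both sections was C4, ganglionic eminence progenitor-like with *Dlx1* and *Sp9* as its leading genes, with 522 CPM (405 to 662) in the control and 2277 CPM (2153 to 2406) in the KO section. Of its cells 45.8% of control and 66.2% of KO cells lay in the germinal place. Cluster C12, radial glia-like and 86.5% and 93.9% germinal, was second with 420 CPM (272 to 621) and 1723 CPM (1607 to 1845). Cluster C14, striatal projection neuron-like and led by the dopamine receptor gene *Drd2*, came next with 396 CPM (248 to 600) and 1087 CPM (983 to 1200). These 3 clusters were ordered beyond their intervals in the KO section, but overlapped in the control. Across the 25 clusters *Slc18a2* was most like *Sp9* (r = 0.77), *Meis2*, *Dlx1*, *Rnd3* and *Pou3f1* in the control, and most like *Dlx1* (r = 0.89), *Sp9* and *Gad2* in the KO section. *Dlx1* and *Sp9*, transcription factor genes of subpallial progenitors and their GABAergic descendants, were on both lists.

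Some of these genes met *Slc18a2* in single cells. Among the 5 genes with the highest level in KO cells with *Slc18a2* over those without were *Dlx1* (4.60-fold), *Sp9* (3.54-fold) and *Top2a* (2.63-fold), and in the control *Sp9* (2.86-fold), *Drd2* (2.69-fold) and *Isl1* (2.44-fold). *Hdc* headed both lists (21.8-fold in the KO section, 7.52-fold in the control), but through few cells: 118 of the 3924 KO cells with *Slc18a2* held it, 81 of them mesenchymal, and 38 of the 59 control transcripts lay in 2 cells. In thinned KO cells, 286 held both *Slc18a2* and *Dlx1*, where the product of the 2 shares gives 79.7. In thinned control cells the count was 20 against 7.01. Unthinned and within clusters as well as depth classes, the excess was smaller: 2392 KO cells held both against 1948 (1.23-fold, 1.18 to 1.28), and 45 control cells against 37.4 (1.2-fold, 0.878 to 1.61, an interval that includes 1). Within the KO germinal place, *Slc18a2* was 3.15-fold (2.73 to 3.63) higher in cells with *Dlx1* than in those without (2422 against 770 CPM). The ratio was 2.0-fold (1.79 to 2.25) for *Gad2*, 2.0-fold (1.78 to 2.24) for *Sp9*, and 1.76-fold (1.53 to 2.03) for *Top2a*, a gene of dividing cells. Of the other listed progenitor markers, *Olig2* was at 1.07-fold (0.964 to 1.19) in the KO section and 0.594-fold (0.277 to 1.21) in the control, intervals that include 1, and *Egfr* was below 1 in the KO section (0.706-fold, 0.594 to 0.836). The ratio was also below 1 for the glial gene *Sox9* (0.754-fold, 0.678 to 0.840) and for *Lhx6* (0.883-fold, 0.785 to 0.991), a gene of the medial eminence. In the control germinal place the intervals of *Meis2* (2.71-fold, 1.35 to 5.65) and *Top2a* (1.99-fold, 1.01 to 4.07) lay above 1, and that of *Dlx1* did not (1.22-fold, 0.623 to 2.34). The cells with the other gene were deeper (median 100 against 69 transcripts for *Dlx1* in the KO section), and the part of depth in these ratios was not tested. The sections are of a single age, so whether this expression is transient cannot be read from them.

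Most *Hdc* lay outside the brain, much of it in scattered, heavily loaded cells. The remaining brain held 4.50% of control and 3.93% of KO *Hdc*. The mesenchymal level was 2048 CPM (1944 to 2156) in the control and 2505 CPM (2450 to 2562) in the KO section. The pallial level was 51.2 and 59.6 CPM, below the median blank barcode there (78.8 and 91.3 CPM). After thinning, 2.27% of control and 1.61% of KO mesenchymal cells held *Hdc* (3.62% and 5.29% unthinned), against 0.0708% and 0.135% of pallial cells (0.202% and 0.721% unthinned). Cells with at least 10 *Hdc* transcripts, called Hdc-rich cells here, numbered 37 (control) and 133 (KO), and 0 of them lay inside the brain. Their median distance from the brain was 200 µm (quartiles 158 and 470) in the control and 206 µm (168 and 266) in the KO section, close to the medians of all mesenchymal cells, 195 and 180 µm. Fewer of them lay next to the brain: 94.6% of control and 97.7% of KO Hdc-rich cells were at least 100 µm away. The same shares of mesenchymal cells were 76.4% and 73.0%. They were spread unevenly, with 2 control cells on one side of the midline and 35 on the other, and 37 and 96 KO cells. Of the 133 KO cells 126 lay inside the mesenchymal place. A fixed count of 10 is easier to reach in the deeper KO section (medians of 34 and 109 transcripts per cell), so these numbers are not comparable between sections. Cells with at least 3 *Hdc* numbered 110 (control) and 266 (KO).

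*Kit* was the leading gene of cells with any *Hdc*, 6.76-fold higher than in other cells in the control and 4.96-fold in the KO section, followed by *Cxcl14*, *Dcn*, *Plekhg3* and *Fzd4* in the control (4.83-fold to 4.17-fold) and *Plekhg3*, *Dcn*, *Creb3l1* and *Cxcl14* in the KO section (4.21-fold to 3.05-fold). *Kit* is the receptor gene of stem cell factor, on which mast cells and melanocytes depend. *Kit* was found in 94.6% of control and 99.2% of KO Hdc-rich cells, against 18.1% and 34.5% of cells of equal depth (8.68% and 17.4% of mesenchymal cells without *Hdc*). *Creb3l1* was found in 100% of them in both sections (45.6% and 66.2% of mesenchymal cells without *Hdc*), and *Tnf*, the gene of a cytokine that mast cells can store, in 21.6% and 43.6% (0.622% and 1.52%). *Ddc*, the aromatic amino acid decarboxylase that acts after *Th* and in serotonin synthesis, was found in 5.41% and 31.6% of them (1.07% and 4.24%). Their median depth, 82 and 235 transcripts, was above that of the cells without *Hdc*, 46 and 134, and depth moves with these shares. The panel holds only *Hdc*, *Slc18a2* and *Kit* of a list of 7 mast cell markers, and 2 of these were under study, so the cells were given no cell type name.

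The clustering placed many of these cells with macrophages. Of the KO Hdc-rich cells, 94 fell in cluster C17, microglia or macrophage-like, and 29 in the mesenchymal or meningeal-like cluster C6. In the control 13 fell in each. Through these cells C17 reached 4337 CPM of *Hdc* in the control and 15182 CPM in the KO section, and 98.4% of its KO transcripts lay in 108 cells with 3 or more. *Csf1r*, a receptor gene of microglia and macrophages, was found in 5.41% of control and 15.8% of KO Hdc-rich cells, against 71.1% and 77.9% of C17 cells without *Hdc*. *Cx3cr1*, a chemokine receptor gene of microglia, was found in 32.4% and 53.4% of Hdc-rich cells, and in 69.2% and 67.0% of those within C17, against 63.0% and 77.3% of C17 cells without *Hdc*. *C1qa* was found in 8.11% and 28.6% of Hdc-rich cells and *Mrc1* in 2.70% and 29.3%, against 42.1% and 67.7%, and 55.7% and 60.4%, of C17 cells without *Hdc*. In the KO section the level of *Hdc* in C17 is therefore that of a minority within the cluster. Across the 25 clusters *Hdc* was most like *Efemp1* in the control (r = 0.90), followed by *Plekhg3*, *Hebp1*, *Igf2* and *Npnt*, and most like *Csf1r* (r = 0.80) in the KO section, followed by *Efemp1*, *Smim3*, *Plekhg3* and *Dcn*.

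A different pattern, of few *Hdc* transcripts in many cells, was found in cluster C21. This cluster, led by *Htr2c*, *Serpinb1b* and *Lmx1a* and left unnamed, measured 2737 CPM (2156 to 3425) in the control and 3243 CPM (2837 to 3692) in the KO section. The main place of the cluster differed: 61.6% of control cells were mesenchymal, while 58.6% of KO cells lay in the remaining brain. Its transcripts came as 1 to 4 per cell, from 68 of 601 control cells and 172 of 432 KO cells, and the level without cells of 3 or more was 2631 and 2919 CPM. After thinning, 7.09% and 6.05% of its cells held *Hdc*. Cluster C23, led by *Lama3*, *Aldh1a1* and *Ccdc153*, measured 10204 CPM (7644 to 13347) in 130 control cells and 3110 CPM (2705 to 3559) in 578 KO cells. Its cells had a median of 35 transcripts in the control and 103 transcripts in the KO section. In the KO section 29 cells with 3 or more held most of its *Hdc*, and without such cells its level was 8279 CPM (control) and 685 CPM (KO).

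Synthesis and vesicle transport met in single cells for *Hdc* and *Slc18a2*. In the KO mesenchymal place, *Slc18a2* was found in 0.625% (0.517 to 0.748) of 18723 cells without *Hdc*, in 1.14% of cells with 1 or 2 *Hdc*, in 2.36% with 3 to 9 and in 54.8% (45.7 to 63.6) of 126 Hdc-rich cells. The level in the Hdc-rich cells, 3728 CPM (3096 to 4452), was above that of each of the 5 places and 25 clusters, and these 126 cells held 48.0% of the *Slc18a2* in the mesenchymal place. The cells without *Hdc* measured 41.6 CPM, under the mean blank barcode of 97.5 CPM in the same cells. In the control, *Slc18a2* was found in 0.106% (0.0567 to 0.182) of 12219 cells without *Hdc* and in 2 of 37 Hdc-rich cells (5.41%, 0.662 to 18.2). The control shares go up in the same direction, but rest on 7 cells with both genes, all 7 of them mesenchymal.

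**Figure D4:**
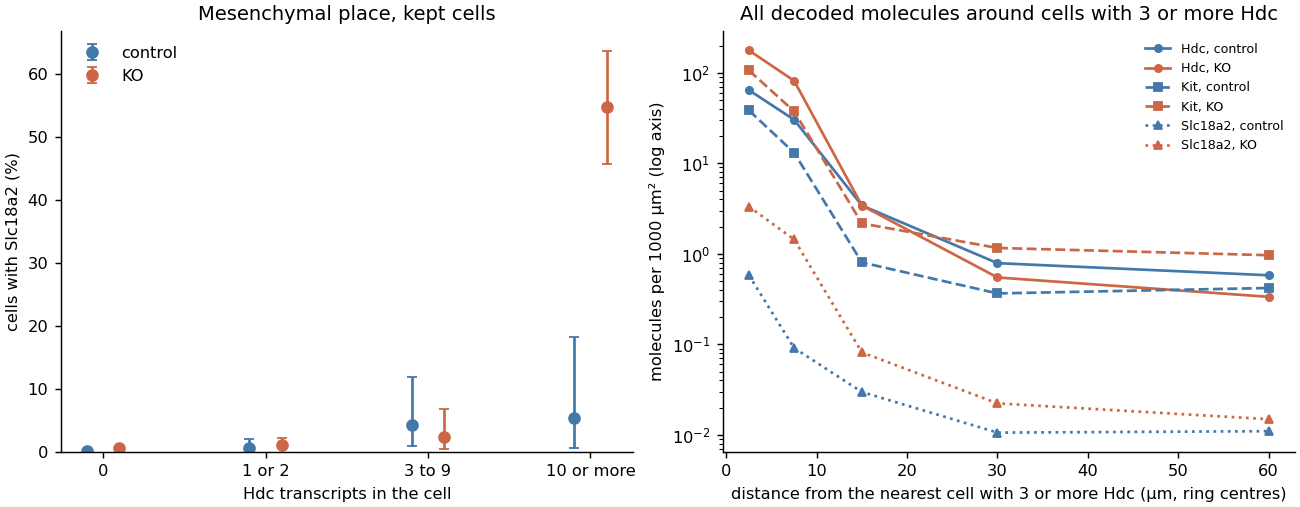
Left, percentage of mesenchymal cells with *Slc18a2* by the number of *Hdc* transcripts in the cell, with exact binomial 95% intervals; right, molecules of *Hdc*, *Kit* and *Slc18a2* per 1000 µm² (log axis) against distance from the nearest cell with 3 or more *Hdc* transcripts (µm). The KO share reaches 54.8% in cells with 10 or more *Hdc*, and *Kit* and *Slc18a2* drop within 20 µm of the cell centre, while the drop of *Hdc* follows from how the cells were chosen.

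The positions of all decoded molecules, which do not depend on how *Slc18a2* was assigned to cells, showed the same meeting. Around the 266 KO cells with 3 or more *Hdc*, *Slc18a2* lay at 3.33 molecules per 1000 µm² within 5 µm of the cell centre, 1.44 at 5 to 10 µm, 0.0815 at 10 to 20 µm and 0.0149 at 40 to 80 µm. *Kit* went from 106 to 0.967 over the same distances, while the mean blank barcode stayed between 0.0590 and 0.0910. The cells were chosen by their *Hdc*, so its own drop, from 177 to 0.335, is no result. Around the 110 control cells, *Slc18a2* went from 0.579 (5 molecules) to 0.0110. Among thinned cells, which hold few transcripts of either gene, 3 control cells held both against 1.07 (2.81-fold, 0.579 to 8.20) and 10 KO cells against 4.71 (2.12-fold, 1.02 to 3.9). In all cells, within depth classes, 7 control cells held both against 3.12 (2.24-fold, 0.901 to 4.62) and 118 KO cells against 92.4 (1.28-fold, 1.06 to 1.53). At least 2 transcripts of both genes were found in 36 KO cells, where the shares within depth classes give 4.59 (7.85-fold, 5.50 to 10.9), and in 2 control cells, where they give 0.0233.

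*Th* and *Slc18a2* were found together above their shares at the KO ventral midline. Among thinned cells, 1 control cell held both where 1.06 is the product of the shares, and 10 KO cells where 5.50 is (1.82-fold, 0.871 to 3.34), so the intervals of both sections include 1. In all KO cells, compared within 10 classes of depth, 180 held both against 117 (1.54-fold, 1.32 to 1.78). Within clusters as well as depth classes the expected number was 148 (1.22-fold, 1.04 to 1.41). At least 2 transcripts of both were found in 4 KO cells against 3.59 (1.12-fold, 0.304 to 2.86), an interval that includes 1. At the KO ventral midline 50 cells held both against 22.2 (2.25-fold, 1.67 to 2.97). The small germinal piece of this area held 23 of the 50, against 13.7 within the piece (1.68-fold, 1.06 to 2.51). Both genes were higher in the piece than in the whole midline area (*Th* 4320 and 990 CPM, *Slc18a2* 915 and 294 CPM). The ratio of the whole area therefore pools unlike tissue, and no expected number within clusters is given for these areas. In the KO germinal place away from the midline, where *Slc18a2* was highest, 63 cells held both against 68.0 (0.926-fold, 0.712 to 1.18). In the lateral band 43 did against 35.5 (1.21-fold, 0.877 to 1.63). The control section had too few such cells to place, 5 in all.

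Most cells with *Th* had no detected *Slc18a2*. In the KO section 19 of the 155 cells with 3 or more *Th* transcripts held *Slc18a2* (12.3%, 7.54 to 18.5), against 4.89% of cells of equal depth, and in the control 0 of 32 did (0 to 10.9%). Of the 180 KO cells with both, 86 were germinal, 44 in the remaining brain and 39 striatal. *Dlx1* was found in 67.8% (60.4 to 74.5) of them, near its share of 61.0% among all KO cells with *Slc18a2*. The dopamine transporter gene *Slc6a3* was found in 3.89% and *Ddc* in 7.22%. At low counts per cell, a missing transcript does not show that the cell lacks the gene. For *Th* and *Hdc* the counts lay near the product of their shares: 9 control cells held both against 8.77, and 55 KO cells against 63.2 (0.871-fold, 0.656 to 1.13).

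Compared between sections, the 3 genes differed in unlike ways. Over the whole section *Slc18a2* was 3.03-fold (2.62 to 3.52) higher in the KO section (log2 1.60), above 99.4% of panel genes. The size of this ratio is uncertain beyond its counting interval, since 12 blank barcodes lay above the control level of 120 CPM: it was log2 2.87 after subtraction of the median blank, 2.22 with a minimum of 50 transcripts per cell and 1.03 with the first imaging plane. It was the only one of the 3 to be at least 1.5-fold higher, as were 16.4% of all 500 panel genes. *Th* was lower by 0.50 on the log2 scale (log2 -0.50, -0.65 to -0.34) and *Hdc* was at log2 -0.05 (-0.15 to 0.05). The sides of a section differed far more in *Hdc* than that, with 324 and 857 CPM in the control and 392 and 932 CPM in the KO section, and pairings of sides ran from log2 -1.13 to 1.52. Neither gene was at least 1.5-fold lower, as 6.8% of panel genes were, but the call is not firm. *Th* passed that fold with no minimum per cell (log2 -0.60), in the lowest pairing of sides (-0.63) and after blank subtraction (-0.75), and *Hdc* with a minimum of 50 (-0.67) and in the lowest pairing. The median of all panel genes was 0.13 on the same scale. In the germinal place 1 of the 3 genes, *Slc18a2*, was at least 1.5-fold higher, as were 17% of panel genes, and 1, *Hdc*, at least 1.5-fold lower, as were 24%. The germinal level of *Hdc* was 159 and 82.2 CPM, beside median blank barcodes of 71.5 and 59.1 CPM. The control level came from 1 hemisphere, with 211 CPM on one side and 60.7 CPM (4 transcripts) on the other, against 86.0 and 78.8 CPM on the sides of the KO section.

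The higher *Slc18a2* of the KO section was largest in the germinal place, 450 against 1875 CPM (4.17-fold, 3.25 to 5.42, log2 2.06). By hemisphere, the germinal level was 546 and 399 CPM in the control and 1803 and 1941 CPM in the KO section, so that both KO sides lay above both control sides. The 2 sides belong to 1 section and are not replicates. Within clusters with at least 20 transcripts in each section, *Slc18a2* was higher in the KO section in 6 of 6, by log2 0.29 to 2.12, and the interval lay above 0 in 5. By ratio the mesenchymal place came next, log2 1.40 (0.62 to 2.26), followed by the striatal place, log2 0.90 (0.48 to 1.34), and the remaining brain, log2 0.67 (0.23 to 1.13), all overlapping in their intervals. The mesenchymal control level, 31.2 CPM on 22 transcripts, lay below the median blank barcode there (49.6 CPM). The mesenchymal KO level was 82.5 CPM beside a median blank of 75.7 CPM, and 122 of its 254 transcripts lay in 126 Hdc-rich cells. In the pallial place, log2 0.41 (-0.41 to 1.31), counting error alone spans 0. Of the 6 ganglionic eminence progenitor markers on the panel, *Dlx1* (log2 0.72) and *Top2a* (0.46) were also higher in the KO germinal place, and *Olig2* (-0.85), *Egfr* (-0.74) and *Ccnd2* (-0.52) were among those lower. The summed level of all 6 was 263828 CPM in the control and 225678 CPM in the KO section, none was at 0, and their part in the difference of *Slc18a2* was not tested. The median depth of germinal cells was 28 (control) and 85 (KO) transcripts.

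**Figure D5:**
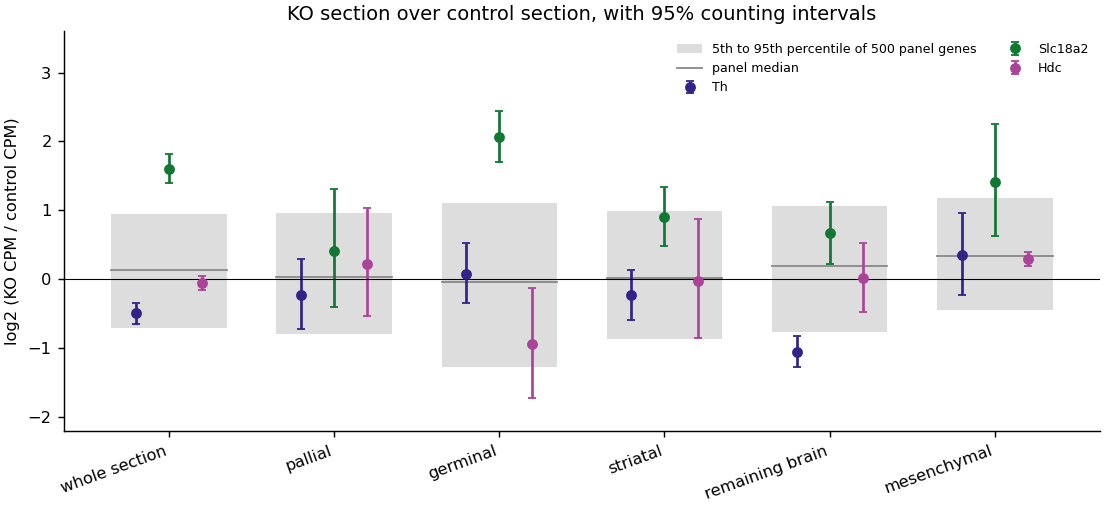
Log2 ratio of KO over control CPM for *Th*, *Slc18a2* and *Hdc* in the whole section and in 5 places, with 95% counting intervals; grey boxes span the 5th to 95th percentile of the 500 panel genes and grey lines mark their median. *Slc18a2* lies above the box in the whole section, the germinal and the mesenchymal place, and *Th* below it in the remaining brain. The mesenchymal *Slc18a2* ratio rests on a control level below the median blank barcode there.

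*Th* was lower in the KO section in the remaining brain, but not beyond counting error in the other places, each taken as a whole. In the remaining brain *Th* measured 747 CPM (680 to 817) in the control and 360 CPM (339 to 382) in the KO section (log2 -1.05, -1.27 to -0.83), at percentile 2 of the ratios of all panel genes there. The ratio was 0.08 (-0.35 to 0.52) in the germinal, -0.23 (-0.59 to 0.13) in the striatal and -0.23 (-0.72 to 0.29) in the pallial place, intervals that include 0. At the ventral midline the ratio was -0.93 (-1.20 to -0.66), in the lateral band it was -0.05 (-0.38 to 0.28), and in the rest of the brain, away from both and from the germinal place, it was -1.13 (-1.40 to -0.86). In the germinal place away from the midline it was 0.44 (-0.21 to 1.13). In the midline piece of the germinal place, with 185 control and 866 KO cells, it was -0.79 (-1.38 to -0.18), an interval below 0. Within clusters, *Th* was lower in the KO section in 7 of 8, and the interval lay below 0 in 4. The ratio was lowest in the striatal projection neuron-like C14 (log2 -2.15, -3.14 to -1.15, on 29 and 43 transcripts) and in C8, unnamed and led by *Sp8*, *Trpc4* and *Pnoc* (log2 -1.63, -2.42 to -0.81, on 36 and 85). In cluster C5, with the most *Th*, it was -0.98 (-1.26 to -0.70). Of the hypothalamic or ventral forebrain markers, 7 of 8 were on the panel, none was at 0, their median ratio in the remaining brain was 0.08 (range -0.21 to 0.77), and their summed level was 5580 CPM in the control and 5716 CPM in the KO section. Per cell volume, where the median of all panel genes in the remaining brain moves from 0.19 to 2.39 on the log2 scale, *Th* there was at log2 1.15, and relative to that median it stayed at -1.24 by construction. The remaining brain covered 3.53 mm² of the control and 2.91 mm² of the KO section, and the part that the plane of section had in the difference was not tested.

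The mesenchymal level of *Hdc* was 1.22-fold (1.14 to 1.32) higher in the KO section (log2 0.29), close to the panel median there of 0.34. It was uneven between sides in both sections, 882 and 2629 CPM in the control and 1808 and 2897 CPM in the KO section. The sides of one section thus differed by more than the sections did, and the 4 pairings of a KO side with a control side gave log2 -0.54 to 1.72. Within clusters *Hdc* was lower in the KO section in 6 of 8 and higher in C17 (log2 1.81, 1.61 to 2.0), which took 94 Hdc-rich KO cells and 13 control cells.

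The panel held part of the rest of the monoamine pathway. Of 62 listed genes of monoamine synthesis, transport, neuron identity and reception, other than the 3, 25 were on the panel. Of 3 synthesis genes, *Ddc* (197 CPM in the control, 261 CPM in the KO section), *Dbh* (112 and 133 CPM) and *Tph2* (65.1 and 74.3 CPM), 0 were above every blank barcode in the control and 1, *Ddc*, was in the KO section. Of all 500 panel genes, 64.6% (control) and 69.6% (KO) were above every blank. The transporter gene *Slc6a3* (113 and 128 CPM) was not above every blank in either section. For *Th* and *Ddc*, 130 KO cells held both against 109 (1.19-fold, 0.994 to 1.41), and 10 control cells against 6.27. For *Slc18a2* and *Ddc*, 160 KO cells held both against 161, or against 134 within clusters (1.19-fold, 1.01 to 1.39). Over the whole section, the enzymes and the transporter that complete a dopaminergic or noradrenergic cell were thus within the range of the blank barcodes, apart from *Ddc* in the KO section. So were *Th* in the KO section and *Slc18a2* in the control, and this range does not show that a gene is absent. In the mesenchymal place *Slc6a3* measured 194 CPM (control) and 249 CPM (KO), beside median blank barcodes of 49.6 and 75.7 CPM.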

How the data were processed

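The authors decoded molecules and segmented cells with the MERSCOPE instrument; its software version and segmentation model are not given in the sources used here. The deposited values were raw counts per cell and gene, cell positions, cell volume (deposited as a signal in µm³), summed stain intensity (deposited, not used here) and positions of single molecules in 7 planes. No deposited column held fold changes or p-values.

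Scripts ran under Python 3.11.15 (pandas 2.3.3, scipy 1.17.1, numpy 2.4.6, matplotlib 3.10.9). A cell entered the analysis from 20 panel transcripts upward, blank barcodes left out of totals. Places were drawn on a grid of 25 µm bins, smoothed by a Gaussian (SD 50 µm): pallial where 5 pallial genes exceeded 50% of pallial and 12 subpallial genes and both together 4% of transcripts, germinal where progenitor genes that include *Dlx1* reached 1.5% of transcripts, striatal at 3% of 12 striatal genes and mesenchymal at 10% of 9 mesenchymal genes. The germinal, striatal and mesenchymal thresholds, the ventral midline area and the lateral band were chosen once the sections had been viewed. Clustering of the other 497 genes used R 4.3.3 with Seurat 5.3.0 and SeuratObject 5.2.0: log normalization, reciprocal PCA integration with 30 components, Louvain clustering at resolution 0.8. A cluster was named from at least 3 listed markers among its top 10 genes. No doublet caller was run, since segmented cells are not droplets; cells of largest volume were left out as an alternative.

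With 1 section per group no test was run. Sums carry exact Poisson and shares exact binomial (Clopper-Pearson) 95% intervals, for counting error only; bounds of a ratio pair opposite ends of both intervals. Shares were compared after each cell had been thinned to 25 transcripts (11347 control cells and 1678 KO cells were too shallow). Expected co-detection is the product of both shares, in unthinned cells within 10 depth classes. Clusters entered a comparison of sections with at least 20 transcripts in each. The interval script was tested on simulated data. Gene positions are from GENCODE on GRCm39. The named genes are the 3 genes, the listed monoamine genes, the 5 most alike over clusters (log2(CPM + 10)) and the 5 highest by ratio in cells that hold the gene, within the upper 50% of panel genes by level; markers named elsewhere were picked with values seen. The members and lists were chosen with earlier results of these data known. Some genes that these rules select are not reported here.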

Additional observations from a re-analysis of the deposited data

How the results depend on the processing

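Of 96 alternatives, 54 stayed within the counting interval of the main value and 7 changed sign: *Th* per cell volume over the whole section and in the remaining brain, *Hdc* in the mesenchymal place in the lowest pairing of hemispheres, and *Hdc* over the whole section, whose main interval includes 0, in 4. *Slc18a2* was higher in the KO section in every alternative run, and its pallial share stayed below that of the panel. The log2 ratio over the whole section (1.60) was 1.33 with no minimum per cell, 2.22 with a minimum of 50, 1.31 with all decoded molecules, 1.03 with the first imaging plane, 3.65 per cell volume and 1.32 in the lowest pairing of hemispheres. In the germinal place (2.06) it was 4.34 with a minimum of 50, which leaves 3 control transcripts, 1.65 with the first plane and 4.28 per volume. *Th* over the whole section (-0.50) was -0.60 with no minimum, -0.63 in the lowest pairing of hemispheres, -0.28 with a minimum of 50, -0.28 in the highest pairing of hemispheres and 1.55 per volume. In the remaining brain (-1.05) it was -1.27 and -0.65 over pairings and 1.15 per volume. *Hdc* over the whole section (-0.05) was 0.11 with no minimum, -0.67 with a minimum of 50, 0.11 with the first plane, 1.99 per volume and -1.13 to 1.52 over pairings. In the mesenchymal place (0.29) it was 0.18 with a minimum of 50, 0.11 with all molecules, 0.0912 with the first plane, 1.88 per volume and -0.54 to 1.72 over pairings. Scaling by volume moves the median of all panel genes from 0.13 to 2.17 over the whole section, and relative to it the 3 genes stay at -0.62 (*Th*), 1.47 (*Slc18a2*) and -0.18 (*Hdc*), by construction, so the sign changes per volume are those of all genes alike. Subtraction of the median blank barcode, chosen after seeing the data, gave -0.75 for *Th* and 2.87 for *Slc18a2* over the whole section and -1.34 for *Th* in the remaining brain.

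The pallial share of control *Th* (8.31%) was 5.75% with a pallial threshold of 70%. The log2 level of the highest cluster over its section at resolutions 0.4 and 1.2 was 1.33 and 2.54 for KO *Th* (1.80), and 2.89 and 3.21 for KO *Slc18a2* (2.65). It was 1.88 at 0.4 for control *Th* (2.28) and 4.40 at 1.2 for KO *Hdc* (4.51). With at least 2 transcripts of each gene, co-detection over expectation was 0 (control) and 1.12 (KO, interval 0.304 to 2.86) for *Th* and *Slc18a2*, 85.9 (control, 2 cells) and 7.85 (KO) for *Hdc* and *Slc18a2*, and 0 and 0 for *Th* and *Hdc*. No paired analysis was possible because each group is 1 section. Depth limits the control most: *Slc18a2* rests there on 278 transcripts. The causes of these shifts were not tested.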

Other observations

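Of 14 monoamine receptor genes on the panel, 7 were above every blank barcode in each section, beside 64.6% (control) and 69.6% (KO) of all 500 panel genes. *Drd2* measured 7137 CPM in the control and 7219 CPM in the KO striatal place, and *Drd1* 4099 and 4245 CPM. *Htr2a* was highest in the pallial place (1162 and 1222 CPM) and *Adra1b* in the remaining brain (2267 and 1875 CPM). *Adra2a* was highest in the mesenchymal place (2270 and 1523 CPM), where *Hdc* was also highest. Of 7 genes that regulate monoaminergic neurons, 6 were above every blank in both sections. *Meis2* was highest in the striatal place (107399 and 122689 CPM) and *Nr4a2* in the pallial place (12891 and 8186 CPM), while *Lmx1a* was not above every blank (242 and 157 CPM). *Sp8* was highest in the germinal place (3383 and 2694 CPM), where *Slc18a2* was highest too.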
